A study of Mus musculus with 5 samples.

Results

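The genes described here encode nuclear subunits of the oxidative phosphorylation complexes. They were taken as all genes read by a probe set with 1 gene symbol that begins with Nduf, Sdha, Sdhb, Sdhc, Sdhd, Uqcr, Cox4, Cox5, Cox6, Cox7, Cox8 or Atp5. The rule used names alone and no measured value. It found 73 of the 8251 genes on the array, read by 100 probe sets, and where a gene had more than 1 the probe set with the highest mean signal over the 5 arrays was used. By complex, 29 genes belonged to complex I, 4 to complex II, 7 to complex III, 14 to complex IV and 14 to complex V (ATP synthase). The prefixes also caught 5 genes that encode no subunit: the assembly factor genes Ndufaf1, Ndufaf4, Sdhaf1 and Sdhaf2, and Cox7a2l, whose product helps to join respiratory complexes. They were kept as members and counted apart.

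The arrays were hybridised with RNA of thymocytes from 5-week-old male C57BL6 mice, with thymuses of 10 animals used in all. DN1 (CD25-, CD44hi), DN2 (CD25+, CD44hi), DN3 (CD25+, CD44lo) and preDP (pre-double positive, CD25-, CD44lo) cells were lin- and CD24+ and came from blast enriched thymocytes. DP (double positive) cells were sorted as CD4+8+ from total thymocytes, so that stage and starting material cannot be told apart for DP. No mutant or treated cells were among these samples. Each population had 1 array, whether its RNA came from several mice is not given in the sources used here, and no test was possible.

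Oxidative phosphorylation takes place in the inner mitochondrial membrane. Complex I takes electrons from NADH and complex II from succinate, complex III passes them to cytochrome c, and complex IV hands them to oxygen. Complexes I, III and IV pump protons, and complex V uses the resulting gradient to make ATP. Most subunits are encoded in the nucleus, and some complex IV subunits have separate genes for different tissues. In the thymus, cells divide rapidly at the later DN stages and around the passage to DP, whereas most DP cells are small and quiescent.

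Signals are the authors' linear probe set values, scaled to nearly the same trimmed mean on every array. A floor of 130.4, the median of all gene probe set values, was set before log2. A gene was called measured where its geometric mean signal over the 5 arrays was above the floor, which held for 4653 genes. Every comparison below is a log2 ratio of floored signals between 2 arrays, and counts use folds of 1.5 and 2. Error could be judged only between probe sets of the same gene on the same arrays, which leaves out variation between sorts, RNA samples and arrays. The 2 brightest probe sets of a gene were compared where both were above the floor on both arrays. Their log2 ratios differed with an SD of 0.54, 0.44, 0.43 and 0.59 over the consecutive comparisons, from 565 to 602 genes. A change of 1.5-fold in a single gene is therefore close to this spread. Sort marker genes followed the gates only in part. Il2ra (CD25) was above the floor in DN2 and DN3 only, and Cd44 was under it on all arrays. In DN1, 3 of the 6 marker genes (Il2ra, Cd44, Cd24a, Cd4, Cd8a and Cd8b1) were above the floor. Genes among Cd4, Cd8a and Cd8b1 were therefore above it in cells sorted as double negative.

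Of the 73 members, 64 were measured, 62 of them above the floor on all 5 arrays. Cox6a2 was above it on 2 arrays and Ndufaf4 on 4. The other 9 were under the floor on every array: Ndufa1, Ndufa12, Ndufc2, Ndufs4, Cox5a, Cox7a1, Cox8a, Atp5g1 and Atp5j2. Most of these encode subunits that every cell with a complete complex needs, so a value under the floor describes the probe set and was not read as absence of the transcript. Counts below are over the 64 measured members.

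Most members shared a low, broad arch over development, with signals that were lower in DN1, climbed through DN2 to a maximum in DN3 or preDP, and were lower again in DP. Signals given 5 in a row below are those of DN1, DN2, DN3, preDP and DP, 1 array each. The highest signal was in preDP for 33 members and in DN3 for 24, together 57 of 64 or 89.1%, against 37.1% of all measured genes. The others peaked in DN1 (2 members, 17% of all measured genes), DN2 (2, 13.6% of all) or DP (3, 32.3% of all). The lowest signal was in DN1 for 33 and in DP for 25, together 90.6% against 61.1% of all, and in preDP for 4 (16.7% of all). Both held at once, a maximum in DN3 or preDP and a minimum in DN1 or DP, for 55 of 64 members or 85.9%, against 32% of all measured genes. Most members are bright, and among the 1590 genes with a mean signal over 1000, a limit chosen after the values were seen, 40.6% had that shape. In these sorted populations a smaller share of cells with a transcript and less of it per cell cannot be told apart.

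The arch was shallow. The highest signal of a member was a median of 1.69-fold over its lowest, and for 18 of 64 members (28.1%) it was at least 2-fold over it, compared with 49.1% of all measured genes. After centring each gene on its own mean log2 signal, the medians of the members over the 5 arrays were -0.27, -0.02, 0.24, 0.30 and -0.24. Those of all measured genes were -0.14, 0.03, 0.03, 0.01 and 0.00. The ratio of 3' to 5' signal of Gapdh, a sign of RNA quality, was 2.04, 1.70, 1.76, 1.39 and 1.92 from DN1 to DP, lowest in preDP where most members peaked. That of actin was 3.06, 3.08, 3.31, 2.79 and 2.83, and their part in the members' profile was not tested.

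**Figure D1:**
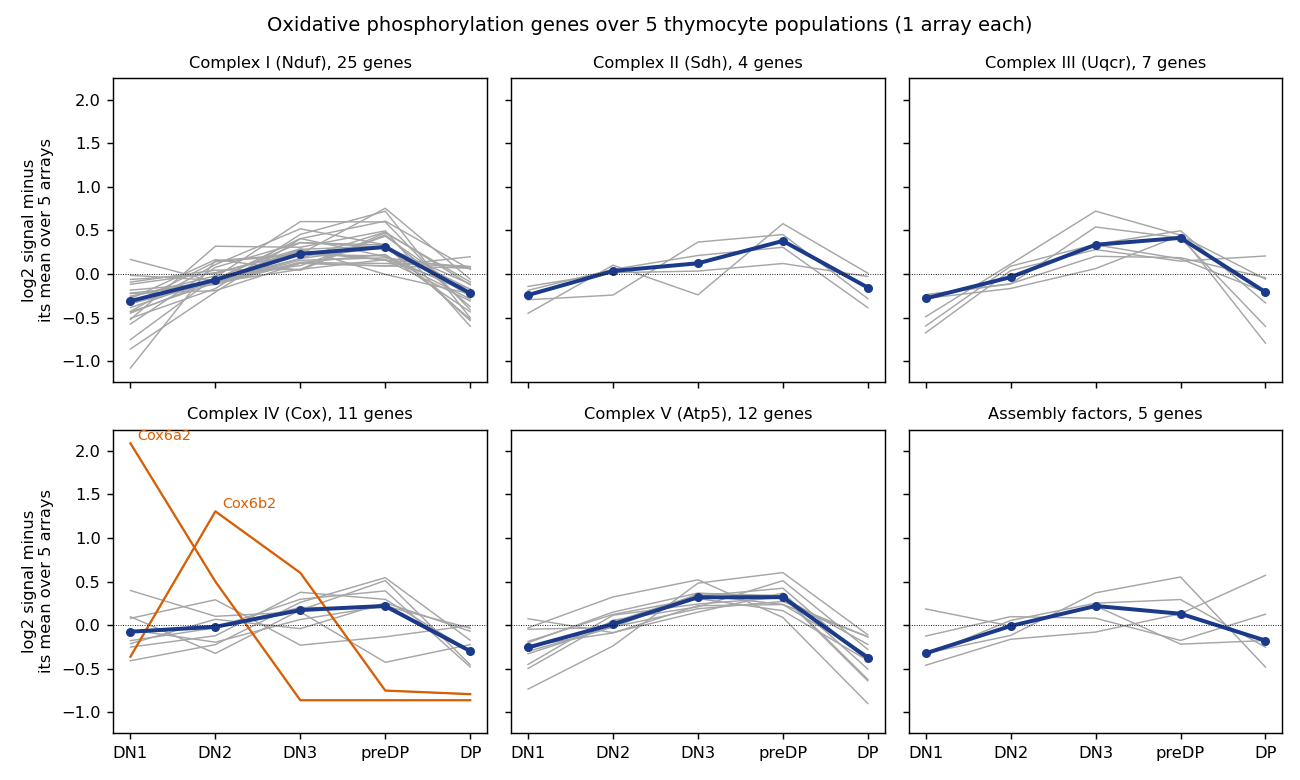
Log2 signal of each measured member minus its own mean over the 5 arrays (y axis) in the 5 populations (x axis), by complex; grey lines are genes and the blue line with points is their median. Medians rise from DN1 to DN3 or preDP and are lower in DP in each panel, whereas the orange lines of Cox6a2 and Cox6b2 peak in DN1 and DN2.

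Complex I, the NADH dehydrogenase, supplied 25 measured members. Of these, 24 were highest in DN3 or preDP (37.1% of all measured genes) and all 25 lowest in DN1 or DP (61.1% of all). Ndufb3, an accessory subunit of the membrane arm, had the widest range among them, with signals of 1275, 2994, 3162, 4546 and 2583. Its DN1 value was far below the other 4. Ndufb6, another membrane arm subunit, had signals of 1189, 1871, 2860.4, 3291 and 2241. Ndufa5, of the peripheral arm, had signals of 2006, 3295, 5132, 5114 and 2543, nearly level between DN3 and preDP. Ndufab1, the mitochondrial acyl carrier protein, which also serves fatty acid and lipoic acid synthesis, had signals of 2994, 3792, 5835, 7019.9 and 3007. Its DP signal was thus back at the DN1 level. Ndufc1 had signals of 2384, 4269, 4233, 4824 and 2257, with the 3 middle arrays close together.

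Subunits that carry the electron path of complex I were also highest in DN3 or preDP and lowest in DN1. Ndufv1, which binds the flavin that accepts electrons from NADH, had signals of 3856, 5428, 5745, 5688 and 4223. Ndufv2, an iron-sulphur subunit, had signals of 3022, 3802, 5061, 4979 and 3308. Ndufs1, the largest iron-sulphur subunit, had signals of 834, 989, 1097, 1467 and 992. Ndufs3, of the quinone-binding part, had signals of 1958, 2271, 2709, 2762 and 2537 and so kept most of its signal in DP. Ndufa13, known also as GRIM-19, was the complex I member highest in DP, at 945, 967, 1204, 1176 and 1267. At 1.34-fold its range was within the spread between probe sets.

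Complex II, succinate dehydrogenase, also works in the tricarboxylic acid (TCA) cycle, and all of its 4 subunit genes were highest in preDP, as were 23.4% of all measured genes. Sdha, the flavoprotein that oxidises succinate, had signals of 251, 368, 290.4, 512 and 345. It alone of the 4 was lower in DN3 than in DN2. Sdhb, the iron-sulphur subunit, had signals of 2787, 2894, 4412, 4683 and 2811, low on 3 arrays and high in DN3 and preDP. The membrane anchor genes differed in range. Sdhd had signals of 2682, 3169, 3540.2, 3779 and 2336, and Sdhc of 2118, 2364, 2393, 2542 and 2292, a range of 1.20-fold.

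Complex III passes electrons from ubiquinol to cytochrome c. All 7 measured genes were higher at both steps from DN1 to DN3, against 31.6% of all measured genes. Uqcr11, a small subunit, had signals of 2141, 3256, 4961, 4098 and 1734, with DP below every other array. Uqcrq, another small subunit, had signals of 7285, 7939.9, 12501, 11465 and 5668 and fell into a high pair, DN3 and preDP, and 3 lower arrays. The core genes Uqcrc1 and Uqcrc2 had flatter profiles, at 4877, 5718, 7399, 6612 and 5076 for Uqcrc1 and 3123, 3409.7, 4240.0, 4193 and 3573 for Uqcrc2. Uqcrh, the hinge subunit that lies next to cytochrome c1, was the member of this complex that stayed high in DP, at 3524, 5779, 6830.1, 6232 and 6493.

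Complex IV, cytochrome c oxidase, was the least uniform complex. Its genes with a maximum outside DN3 and preDP were isoforms known for restricted tissues. Its 7 measured genes of other subunits (Cox4i1, Cox5b, Cox6a1, Cox6b1, Cox6c, Cox7a2 and Cox7b) were all highest in DN3 or preDP (37.1% of all measured genes). None of the 4 measured tissue isoform genes (Cox6a2, Cox6b2, Cox8b and Cox8c) was. This split by isoform was made after the values were seen. The other subunits were not uniform either. Of these 7 genes, 4 (57.1%) were higher at both steps from DN1 to DN3, against 31.6% of all measured genes. Cox6a1 and Cox6b1 were lower in DN2 than in DN1, and Cox4i1 was 1.08-fold lower in DN3 than in DN2. The other probe set of Cox4i1 went the other way, from 77.5 in DN2, under the floor, to 154 in DN3. Cox5b had signals of 4073, 4511, 5663, 6054 and 3304, and Cox7a2 of 3936, 4476, 6265, 7626 and 4635. Cox6a1 had signals of 13000.5, 11784, 14118, 15728 and 13178, nearly flat at a range of 1.33-fold. Cox4i1, which encodes the subunit at which ATP inhibits the enzyme, had signals of 389, 473, 439, 539 and 429.8.

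Cox6a2, the heart and skeletal muscle form of subunit 6A, ran against all of these. Its signals were 1008, 335, 127, 28.7 and 98.5, the last 3 under the floor. It was 3.01-fold lower in DN2 than in DN1, at least 2.57-fold lower in DN3 than in DN2 and at least 7.73-fold lower in DP than in DN1. DN1 held high signal of markers of other blood cells as well, given below with DN2 against DN1. Cox6b2, known as the testis form of subunit 6B, peaked in DN2, with signals of 850.0, 2703, 1657, 649 and 631. DN2 stood 3.18-fold above DN1 for this gene, which was then 1.63-fold lower in DN3 than in DN2 and 2.55-fold lower in preDP than in DN3.

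A second probe set of Cox6b2 gave 243, 1365, 772, 284 and 119 over the same arrays, so that DN2 and DN3 were highest by both, and the remaining probe set was under the floor on all arrays. The 2 probe sets of Cox6b2 with signals above the floor carry suffixes for sequence that may not be unique to the gene. Probe sets with a suffix other than the plain _at were used for 19 of the 73 members. Those of Cox6a1, Cox4i1, Sdhb, Ndufa5 and Uqcrc2 also carry suffixes for sequence that may not be unique to the gene. That of Cox6b1 has the suffix r instead. Cox6b1, the general form, had signals of 227, 169.7, 239.6, 303 and 155, lowest in DP. Cox8c, a form known from testis, had signals of 468, 381, 395, 264 and 304, and Cox8b, a form known from muscle and brown fat, of 257, 298, 207, 222 and 243. Their ranges were 1.77-fold and 1.44-fold, and the general form Cox8a was under the floor on all arrays.

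**Figure D2:**
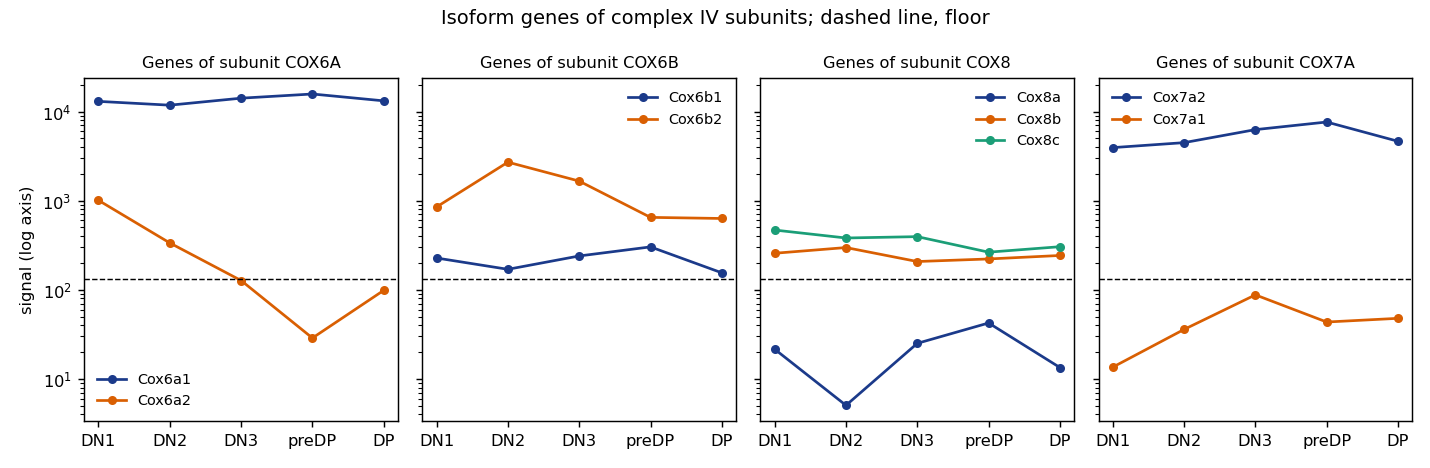
Signal on a log axis (y) in the 5 populations (x) for genes that encode forms of the same complex IV subunit, 1 array per point, with the floor of 130.4 as a dashed line. Cox6a2 declines from 1008 in DN1 to values under the floor and Cox6b2 peaks at 2703 in DN2; heights of different genes come from different probe sets and are not comparable.

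In complex V, as in complexes II and III, all measured genes (12 here) were highest in DN3 or preDP and lowest in DN1 or DP. Of all measured genes on the array, 32% had both. In the catalytic head, Atp5a1 (alpha) had signals of 8632, 10469.9, 12112, 12838 and 9675. The stalk genes Atp5c1 (gamma) and Atp5d (delta) had signals of 7004, 7761, 9637, 9723 and 7529, and of 1463, 1813, 2057, 1867 and 1257. Atp5e (epsilon), also of the stalk, had signals of 4449, 5689, 6521, 4832 and 2435 and so was already lower in preDP. Of the genes for the proton-conducting ring, Atp5g2 had signals of 1201, 1216, 1592, 1570.1 and 805, and Atp5g1 was under the floor throughout. Atp5o, the subunit that ties the stator to the head, had signals of 3019, 4435, 4932, 6072 and 3514.

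Small subunits of the membrane part, which join ATP synthases into dimers or stabilise them, were also highest in DN3 or preDP. Atp5k had signals of 199.8, 282, 464, 505 and 308, and Atp5l of 7431, 9485, 11037, 10707 and 5487. Among the non-subunit members, Ndufaf4 followed the subunits, at 146, 168, 235, 267 and 86.5. Sdhaf2, which attaches the flavin to Sdha, was highest in DP, at 202, 248, 263, 304 and 412. Sdhaf1, which helps to insert the iron-sulphur clusters of Sdhb, had signals of 1129, 986, 1156, 853 and 878, and Cox7a2l of 2863, 3342, 3299, 2764 and 3405. Only Ndufaf1 and Ndufaf4 of these 5 were lower in DP than in preDP.

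In DN2 compared with DN1, 56 of 64 members were higher by any amount (87.5%, against 62.4% of all measured genes), and 8 lower (36.7% of all), with a median log2 ratio of 0.24. All measured genes had a median of 0.17 in this comparison, and genes with a mean signal over 1000 one of 0.27, so the size of the members' shift was near that of other genes. Of the members, 9 (14.1%) were at least 1.5-fold higher, below the 19.9% of all measured genes, and 1 was at least 1.5-fold lower (11.7% of all). With arrays scaled to an equal median 20 were at least 1.5-fold higher, and the median was 0.48 against 0.40 for all measured genes. The highest ratios belonged to Cox6b2, Ndufb3 (2.35-fold), Ndufc1 (1.79-fold), Ndufa5 (1.64-fold) and Uqcrh (1.64-fold), and Cox6b2 and Ndufb3 were the 2 at least 2-fold higher (5.14% of all). The lowest belonged to Cox6a2, Cox6b1, Cox8c, Ndufb7 and Sdhaf1, of which Cox6a2 alone was past 2-fold (6.23% of all).

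Members that were higher in DN2 came from every complex. All 7 genes of complex III and all 4 of complex II were higher by some amount, against 62.4% of all measured genes. So were 23 of 25 in complex I and 11 of 12 in complex V. In complex IV 7 of 11 were higher, or 63.6%, a share near that of all measured genes. Without its tissue isoforms 5 of 7 were higher, with a median of 0.13 against 0.17 for all measured genes. Ndufb7, with signals of 6329, 5294, 6178, 6591 and 4171, was 1.20-fold lower in DN2. Neutrophil and myeloid markers were above the floor for 11 of 13 genes in DN1 and 5 in DN2, with summed signals of 126985 and 2556. Dendritic cell markers, 7 of 7 above the floor on both arrays, summed to 137449 and 3296, and B-cell markers, 7 and 4 of 7, to 60303 and 4687. On the other 3 arrays the sums were at most 656, 1233 and 10012. The part of such cells in the members' ratios was not tested.

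In DN3 compared with DN2 the members moved while the other genes on balance did not. Again 56 of 64 were higher (87.5%, against 50.1% of all measured genes), with a median of 0.24 against 0.00 for all measured genes and 0.06 for those with a mean signal over 1000. The middle 50% of members lay between 0.14 and 0.36, a narrower span than the -0.27 to 0.26 of all measured genes. The count at least 1.5-fold higher was 7 members (10.9%, against 7.22% of all), and 2 were as much lower (9.91% of all). Under quantile normalisation these counts were 2 and 2. Atp5k (1.65-fold), Uqcrq (1.57-fold), Ndufa5 (1.56-fold), Ndufab1 (1.54-fold) and Ndufb6 (1.53-fold) had the highest ratios. No member was 2-fold higher (2% of all).

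The exceptions in DN3 were few. Cox6a2, Cox6b2, Cox8b (1.44-fold lower), Sdha (1.27-fold lower) and Ndufa9 (1.09-fold lower) had the lowest ratios, with Cox6a2 the sole member at least 2-fold lower (3.55% of all). All 12 measured complex V genes and all 7 of complex III were higher, as were 23 of 25 in complex I. The share of all measured genes was 50.1%. Proliferation genes went the other way, with 12 of 14 lower (48.5% of all measured genes) and a median of -0.21. The part of proliferation genes in the members' ratios was not tested.

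**Figure D3:**
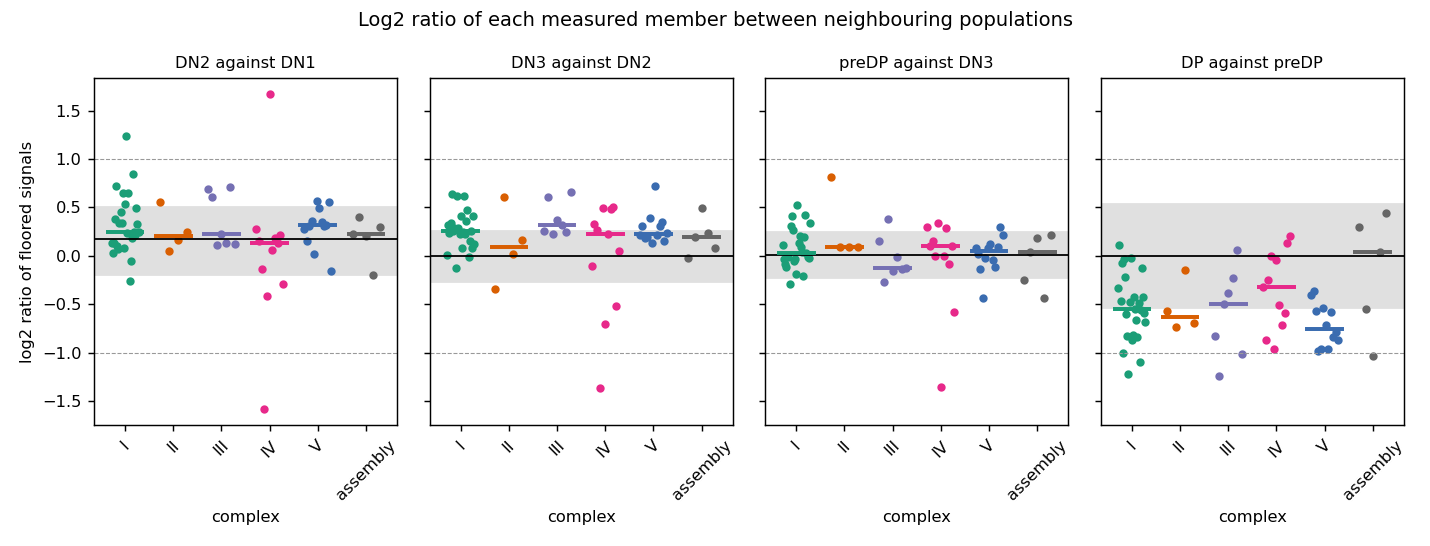
Log2 ratio of floored signals (y axis) of every measured member in the 4 consecutive comparisons, by complex (x axis); short bars are medians, the black line and grey band are the median and middle 50% of all measured genes, and dashed lines mark 2-fold. In DN3 against DN2 most members lie above the black line, and in DP against preDP 56 of 64 lie below 0.

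Between DN3 and preDP the members as a group were level. In preDP 35 of 64 were higher (54.7%, against 50.8% of all measured genes) and 28 lower (47.1% of all), with a median of 0.04 against 0.01. One was at least 1.5-fold higher, Sdha (1.76-fold; 1.56% of members against 7.14% of all), and 1 lower, Cox6b2 (8.34% of all), which was also past 2-fold (2.41% of all). No member was 2-fold higher (1.16% of all). After Sdha came Ndufb3 (1.44-fold), Ndufs1 (1.34-fold), Ndufa9 (1.33-fold) and Uqcrb (1.30-fold). The lowest after Cox6b2 were Cox8c (1.49-fold lower), Sdhaf1 (1.36-fold), Atp5e (1.35-fold) and Ndufa7 (1.23-fold). Complex III had 5 of 7 genes lower and complex II all 4 higher. Proliferation genes were higher at this step for 14 of 14, with a median of 0.67.

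DP cells had lower signals of nearly the whole set. Compared with preDP, 56 of 64 members were lower (87.5%, against 49% of all measured genes), with a median log2 ratio of -0.56 against 0.00 for all and -0.08 for genes with a mean signal over 1000. At least 1.5-fold lower were 28 members (43.8%), against 23.1% of all, and none was 1.5-fold higher, against 22.8% of all. A 2-fold difference was reached by 6 (9.38%), which is below the 12.1% of all measured genes. The members' differences were thus many and moderate. The 6 were Uqcr11 (2.36-fold lower), Ndufab1 (2.33-fold), Ndufc1 (2.14-fold), Ndufaf4 (at least 2.05-fold), Uqcrq (2.02-fold) and Ndufa5 (2.01-fold).

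All 12 complex V genes, all 4 of complex II and 24 of 25 in complex I were lower in DP by some amount. The share of all measured genes was 49%. The medians of these complexes were -0.75, -0.63 and -0.55. Complex III had a median of -0.50, and complex IV one of -0.33, or -0.59 over its 7 genes without the tissue isoforms. The members that did not fall with the rest were Sdhaf2 (1.36-fold higher), Cox7a2l (1.23-fold), Cox8c (1.15-fold), Cox8b (1.09-fold), Ndufa13 (1.08-fold), Uqcrh (1.04-fold) and Sdhaf1 (1.03-fold), all under 1.5-fold, and Cox6a2 was under the floor on both arrays. Proliferation genes were lower for 14 of 14, with a median of -1.41, and their summed signal was 71941 in preDP and 26927 in DP. Their part in the members' ratios was not tested, and the DP array differs in starting material as well.

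DP and DN1, the ends of the series, had similar levels of the set. In DP 35 of 64 members were higher than in DN1 (54.7%, against 55.6% of all measured genes) and 29 lower (43.6% of all), with a median of 0.02 against 0.12. At least 1.5-fold higher were 5 members (7.81% against 26.4% of all) and 4 lower (6.25% against 19.5%). With arrays scaled to an equal median these were 22 and 1, with a median of 0.41 against 0.50 for all measured genes. The highest ratios were those of Sdhaf2 (2.05-fold), Ndufb3 (2.03-fold), Ndufb6 (1.88-fold), Uqcrh (1.84-fold) and Atp5k (1.54-fold). The lowest were those of Cox6a2, Atp5e (1.83-fold lower), Cox8c (1.54-fold), Ndufb7 (1.52-fold) and Atp5pb (1.49-fold), the last for a stator subunit with signals of 262, 234, 276, 321 and 175. This comparison shares its arrays with the consecutive ones.

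Members read by more than 1 probe set above the floor gave a partial repeat on the same arrays. In the 5 to 7 members with 2 such probe sets the log2 ratios of the pair differed with an SD of 0.39, 0.30, 0.11 and 0.17 over the consecutive comparisons. Their directions were the same in 6 of 6, 5 of 6, 5 of 7 and 4 of 5 genes. Over all genes with 2 such probe sets they were the same in 421 of 573, 383 of 596, 392 of 602 and 430 of 565. Atp5c1 gave 2682, 3011, 3825, 4065 and 3127 with its second probe set, again lowest in DN1 and highest in preDP. Ndufb2, a membrane arm subunit of complex I, gave 4274, 6204, 8246, 7257 and 3973 with the first and 3323, 4886, 5014, 4959 and 2839 with the second. Ndufa3 was the pair that disagreed in DN3 against DN2, with log2 ratios of 0.34 and -0.26. It was also the pair that disagreed in DP against preDP, with -0.08 for the probe set used and 0.34 for the other. No pair pointed opposite ways by 1.5-fold on both sides.

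Other mitochondrial genes were read from lists for comparison, and those of the mitochondrial ribosome, which makes the subunits encoded in mitochondrial DNA, had nearly the same profile. Of its 57 measured genes 52 (91.2%, against 32% of all measured genes) had a maximum in DN3 or preDP and a minimum in DN1 or DP. Their medians over the consecutive comparisons were 0.39, 0.33, 0.10 and -0.73, against 0.24, 0.24, 0.04 and -0.56 for the members. In DP 16 of them (28.1%, against 12.1% of all measured genes) were at least 2-fold lower than in preDP, among them Mrps22 (585.6 to 149) and Mrpl12 (2999 to 919). Import and chaperone genes had medians of 0.31, 0.35, 0.01 and -0.63, with 7 of 18 (38.9%) at least 2-fold lower in DP. These were led by Timm8a1 (1420.4 to 198), Hspa9 (5934 to 1502) and Hspe1 (6624 to 1835). TCA cycle and pyruvate dehydrogenase genes were less uniform, with medians of 0.29, 0.08, 0.11 and -0.38. Of these, 6 of 15 (40%) had a maximum in DN3 or preDP and a minimum in DN1 or DP. That share is near the 40.6% of genes with a mean signal over 1000. Suclg2 (1499 to 344) and Fh1 (2443 to 1004) were at least 2-fold lower in DP than in preDP, while Pdha1 went from 3282 to 4079 and Pdhb from 3359.5 to 3614.

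Genes that act next to the complexes varied up to DN3, and most were lower in DP than in preDP. Among 8 measured electron carrier genes outside the rule, 5 were higher in DN2 than in DN1 and 5 in DN3 than in DN2. In preDP 7 were higher than in DN3. In DP all 8 were lower than in preDP (49% of all measured genes), with a median of -0.71. Of 5 measured genes for ATP export and carriers, 3 were higher in DN2 and 4 in DN3, each against the stage before. All 5 were higher in preDP and then lower in DP (median -0.79). Cyc1, the complex III subunit cytochrome c1, which the name rule leaves out, had signals of 6976, 9183, 12874, 13057 and 8456, lowest in DN1 and highest in preDP. Cycs, cytochrome c, had signals of 322, 253, 425, 550.0 and 179.9 and was 1.61 lower in DP than in preDP on the log2 scale. Atpif1, the inhibitor of ATP synthase, had signals of 4749.6, 6302, 6194, 7354 and 2933. Assembly factor genes outside the rule had medians of 0.18, 0.26, -0.09 and -0.54, with Uqcc2 (2025 to 508) and Lrpprc (1412 to 586) at least 2-fold lower in DP. Glycolysis genes had medians of 0.05, 0.18, 0.14 and -0.79. Of these, 5 of 16 (31.25%, against 12.1% of all measured genes) were at least 2-fold lower in DP than in preDP, among them Tpi1 (5928 to 1089.7). Ldhb, which favours lactate oxidation, went from 1179 to 6639.6 instead.

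Regulators known to control the nuclear genes of mitochondria differed in direction at each step after DN2. Of 11 measured genes on their list, 9 were higher in DN2 than in DN1 (81.8%, against 62.4% of all measured genes). In DP 9 were higher than in DN1 (55.6% of all), with a median of 0.86. The medians over the consecutive comparisons were 0.55, 0.00, 0.22 and 0.13. Myc, which drives growth and mitochondrial genes, had signals of 463, 597, 1014, 1347 and 84.1, the last under the floor. Gabpa, the ETS factor also called NRF-2, had signals of 212, 386, 303, 589.8 and 402, and Yy1 of 1036, 1738, 1661, 1749 and 1957. Esrra, an orphan nuclear receptor, had signals of 600.3, 418, 409, 347 and 781, lowest in preDP and highest in DP. Pprc1, a PGC-1 related coactivator, had signals of 235, 356, 397, 375 and 82.6, the last under the floor. Polg, the mitochondrial DNA polymerase, had signals of 150.03, 127, 127, 201 and 814, with DN2 and DN3 under the floor. Ppargc1a and Tfam were under the floor on all arrays.

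**Figure D4:**
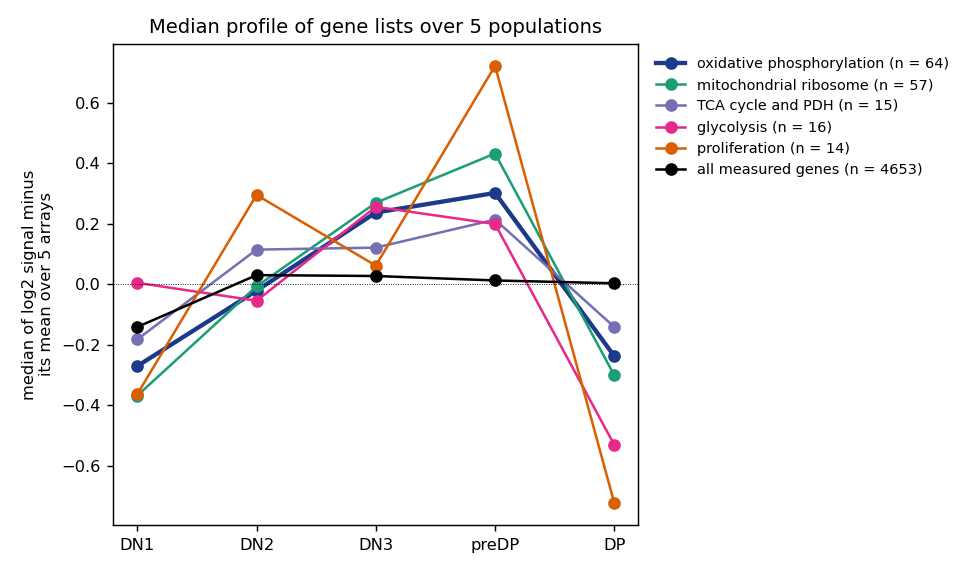
Median over each gene list of log2 signal minus the gene's mean over the 5 arrays (y axis) in the 5 populations (x axis), with the number of measured genes in brackets. The oxidative phosphorylation and mitochondrial ribosome lines run close together, from -0.27 and -0.37 in DN1 to 0.30 and 0.43 in preDP, while the proliferation line is lower in DN3 than in DN2.

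Promoters were examined because members moved together. Windows of 300 bases, from 250 before to 50 after the gene start, were taken from RefSeq (GRCm38.p6) and matched 60 of the 73 members. Both strands were searched for the letters GCGCA and GCGC with any 1 base between (a form of the NRF1 motif), CCGGAAG (bound by ETS factors such as Gabpa), AAGATGGCG (YY1) and CACGTG (the E-box of Myc), none of which holds another. Of 51 measured members with a window, 23.5% had the NRF1 letters, 33.3% the ETS letters, 5.88% the YY1 letters and 7.84% the E-box. Over all 3824 measured genes with a window the shares were 13.8%, 23.9%, 4.31% and 13%, and over all 27025 genes with a RefSeq window 5.19%, 9.93%, 1.64% and 8.09%. At least 1 of the first 3 was in 54.9% of the members against 37.0% of measured genes. The complexes differed when counted over genes with a window, measured or not. Complex I, the largest, had such letters in 9 of 26 (34.6%), below the share of measured genes. Complex II had them in 3 of 3, complex III in 3 of 4 and complex V in 9 of 12. Complex IV without the tissue isoforms had them in 3 of 7. A match is a description of the letters and shows no binding.

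The 150 bases before the gene start are printed for 5 members named above for their ratios, 3 with and 2 without a match, chosen after the matches were known. NRF1, ETS and YY1 letters on either strand are in capitals. Sdha (chr13:74350241-74350390 on the minus strand) had the highest ratio in preDP against DN3 and has 3 NRF1 matches. Uqcr11 (chr10:80406822-80406971 on the minus strand), Ndufa5 (chr6:24527691-24527840 on the minus strand, 1 of its 2 annotated starts) and Ndufab1 (chr7:122101849-122101998 on the minus strand) were at least 2-fold lower in DP than in preDP. Cox6b2 (chr7:4753095-4753244 on the minus strand) peaked in DN2. Each is written 5′ to 3′ on the gene's strand.
Sdha: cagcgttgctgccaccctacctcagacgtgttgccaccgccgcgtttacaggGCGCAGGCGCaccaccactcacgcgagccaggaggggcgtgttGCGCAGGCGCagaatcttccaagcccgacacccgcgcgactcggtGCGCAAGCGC
Uqcr11: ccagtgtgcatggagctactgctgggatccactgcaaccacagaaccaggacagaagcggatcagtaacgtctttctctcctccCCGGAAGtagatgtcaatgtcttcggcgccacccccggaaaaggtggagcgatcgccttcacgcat
Ndufa5: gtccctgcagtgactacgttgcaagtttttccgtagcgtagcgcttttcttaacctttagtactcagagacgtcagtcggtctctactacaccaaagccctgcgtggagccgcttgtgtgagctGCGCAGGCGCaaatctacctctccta
Ndufab1: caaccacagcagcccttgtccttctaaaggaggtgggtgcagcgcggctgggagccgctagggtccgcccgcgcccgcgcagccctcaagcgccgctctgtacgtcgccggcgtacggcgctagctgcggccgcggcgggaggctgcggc
Cox6b2: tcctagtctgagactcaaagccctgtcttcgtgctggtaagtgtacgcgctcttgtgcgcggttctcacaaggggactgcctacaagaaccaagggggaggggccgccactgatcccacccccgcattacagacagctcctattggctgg
Of the tissue isoforms, Cox6b2, Cox7a1 and Cox8b had a window, and none of the 3 held any of the 4 motifs. Of the members at least 2-fold lower in DP than in preDP, Uqcr11 holds ETS letters, Ndufa5 and Ndufaf4 NRF1 letters and Ndufc1 YY1 letters, Ndufab1 holds none of the 4, and Uqcrq was not matched to a window.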

How the data were processed

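Signal intensities per probe set were used as deposited. The submitters' processing notes name Expression Console 1.0 (Affymetrix) and MAS5 as what the authors used, without further settings. The trimmed mean (2% off each end) of every array was 500.3 to 500.4, which hides differences in total mRNA per cell. Of 12488 probe sets, 66 were controls, 10833 had 1 gene symbol by the platform annotation, 396 several and 1193 none. Gene identifiers matched the RefSeq table of GRCm38.p6 for 10817, and 16 others kept their symbol. Probe sets with several symbols were not used for members.

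Values under the floor (50th percentile) were raised to it before log2. Unspiked controls reached 67.6 at most. Measured genes were those with a geometric mean above the floor. No p-value was computed, since each population had 1 array, and that number limits precision. Counting was tested on simulated data. The named genes are the 5 highest and lowest ratios per comparison, members 2-fold apart, complex II, isoform genes and members under the floor; others were chosen after their values were seen. Of other lists, members 2-fold apart with the largest differences and set regulators are given. Members and lists were chosen with earlier results of these data known. Alternatives were quantile normalisation, equal medians, other floors, an added constant and means over probe sets. Further ones were only probe sets with the plain _at suffix, subunits alone and unmeasured genes included. Python 3.11.15, pandas 2.3.3 and numpy 2.4.6 were used.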

Additional observations from a re-analysis of the deposited data

How the results depend on the processing

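With 1 array per population no replicate could be left out. No paired analysis was possible because no comparison had replicates. Over all alternatives run, the members' median log2 ratio stayed between 0.19 and 0.29 in DN3 against DN2 and between -0.57 and -0.47 in DP against preDP, and between 0.00 and 0.09 in preDP against DN3. No median changed sign. Medians moved by over 0.1 in 2 of 50 cases, and counts by over 1.5 times in 40 of 200. With arrays scaled to an equal median, the median was 0.48 in DN2 against DN1 and 0.41 in DP against DN1, where the all-gene medians were 0.40 and 0.50. At that scaling 20 members were 1.5-fold higher in DN2 against DN1, and in DP against DN1 22 were 1.5-fold higher, 1 lower and 5 were 2-fold higher. With quantile normalisation 2 were 1.5-fold higher in DN3 against DN2 and 1 was 2-fold higher in DP against DN1.

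Other moves concerned counts of 6 or fewer members. With the floor at the 35th percentile 2 members were 1.5-fold higher, 2 were 1.5-fold lower and 2 were 2-fold lower in preDP against DN3, and in DP against preDP 1 was 2-fold higher. With the floor at the 65th, 0 were 1.5-fold or 2-fold lower in DN2 against DN1, 1 was 1.5-fold and 0 were 2-fold lower in DN3 against DN2, and in DP against DN1 3 were 1.5-fold and 1 was 2-fold higher, 2 were 1.5-fold and 0 were 2-fold lower. With an added constant 0 were 2-fold lower in DN3 against DN2, 2 were 1.5-fold lower in preDP against DN3, 3 were 2-fold lower in DP against preDP and 0 were 2-fold higher in DP against DN1. With the mean over probe sets 1 was 1.5-fold lower in DN3 against DN2, 0 were 2-fold lower in preDP against DN3 and 2 were 1.5-fold lower in DP against DN1. With only probe sets without a shared-sequence suffix 1 was 2-fold higher in DN2 against DN1, 1 was 1.5-fold lower in DN3 against DN2 and 0 were lower by either fold in preDP against DN3. With subunits alone 1 was 2-fold higher in DP against DN1. Without the tissue isoforms, chosen after seeing the data, 1 was 2-fold higher and 0 lower by either fold in DN2 against DN1, 0 were lower by either fold in DN3 against DN2 and in preDP against DN3, and in DP against DN1 2 were 1.5-fold and 0 were 2-fold lower. The cause of these moves was not tested, beyond the smaller sets and the floors themselves.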

Other observations

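Probe sets with several gene symbols, left out of the members, read further subunit genes together with related genes or pseudogenes, and 8 of 10 were above the floor on all arrays. The probe sets shared by Ndufs6 and Ndufs6b, complex I genes, had signals of 3831, 5383, 6794, 6814 and 4449 (DN1, DN2, DN3, preDP, DP) with the brighter, and 2153, 2578, 3569, 3619 and 2299.6 with the other. That of Ndufa11 and Ndufa11b had signals of 1547, 2189.7, 2414, 2623 and 1869, and that of Ndufs5 and a pseudogene of 1992, 2571, 3945, 4259.9 and 3635. The brighter probe set of Cox7c, shared with a predicted gene, had signals of 19956, 21837, 26578, 21963 and 17818. All 8, which also read Ndufab1 and Atp5c1, were higher in DN2 than in DN1, higher in DN3 than in DN2 and lower in DP than in preDP. They are other probe sets on the same arrays, so they repeat no array.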
